A study of Mus musculus with 4 samples.

Results

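The cells described here came from the injured hind limbs of Ddr2 slie/slie mice and of control mice, compared across all genes. A cell was a barcode with at least 200 detected genes and at most 20% mitochondrial UMIs, which left 997 of the 1241 cells of the whole series, 246 from slie and 751 from control mice. A UMI is a molecular tag that marks 1 captured RNA molecule. Slie is a recessive deletion in the mouse Ddr2 gene. Each mouse had a burn over 30% of the body surface together with a cut of the left Achilles tendon, and the injured left limb was taken 7 days later by single-cell RNA sequencing (10x Genomics). The uncut right limbs of the same burned mice gave 2 further libraries. Limbs of 2 mice were pooled per library, so each genotype is 1 library with no replicate. The labels name no age, sex or strain. All intervals below are 95% intervals for counting error only, and they leave out the spread between mice, so no test of genotype was possible.

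Ddr2 is a receptor tyrosine kinase that fibrillar collagen activates, and it sits mainly on fibroblasts, cartilage and bone progenitors and other mesenchymal cells. Burn with Achilles tenotomy is a standard mouse model of heterotopic ossification, in which mesenchymal cells of the injured tendon and surrounding tissue form cartilage and then bone. At 1 week the site is an inflamed wound, holding neutrophils, monocytes and macrophages beside proliferating fibroblasts and growing vessels.

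Hemoglobin genes were left out of every total because they mark red cells in the preparation. The slie library then held 959659 UMIs and the control library 3787256, with medians of 1203 and 1541 UMIs per cell. Levels are given per 1000000 UMIs of the library (CPM), where the floor of 3 UMIs stands at 3.13 CPM in slie and 0.79 CPM in control cells. The 3 deepest cells carried 21.5% of the slie UMIs against 5.45% in control. Cells with under 0.5% mitochondrial UMIs were 61.8% of slie and 50.5% of control cells. The injured libraries shared no barcode with each other. The Y-linked genes Eif2s3y (67.7 and 74.7 CPM) and Ddx3y (67.7 and 67.9 CPM) were at like levels in both, and Xist had 0 UMIs in each library.

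Ddr2 itself (chromosome 1, 169972307-170110762 in mm10, minus strand) had 0 UMIs in the slie library and 115 UMIs in 70 control cells, at 30.4 CPM, so it was at least 9.71-fold lower against the floor of 3 UMIs. Of the control UMIs, 62 lay in the mesenchymal cluster numbered 2 and 33 in pericyte-like cells, the contractile cells that wrap small vessels. Which stretch of the Ddr2 transcript the reads covered cannot be read from a count per gene. In the uninjured limbs Ddr2 had 2 slie and 3 control UMIs, too few for a comparison.

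Across 11309 genes with at least 20 UMIs over both libraries, 1393 (12.3%) differed at least 2-fold: 898 (7.94%) were lower in slie cells and 495 (4.38%) higher, and the median log2 ratio of slie over control was −0.02. With the interval also required to leave out a ratio of 1, 545 genes (4.82%) were lower and 423 (3.74%) higher. Both directions had like sizes, with median folds of 2.66 and 2.58. Their UMIs were spread over cells differently, but each direction was counted in a different library. The slie library had 246 cells, 3 of which carried 21.5% of its UMIs, against 751 cells and 5.45% in control. Single cells can thus hold a larger share of any gene in slie, and these shares were not set beside those of all measured genes. Of the genes higher in slie cells, 204 had more than 50% of their slie UMIs in a single cell, and the top cell held a median of 42.9% of a gene's UMIs. Among the genes lower in slie, 62 had more than 50% of their control UMIs in a single cell, and there the top cell held a median of 10.5%. When a gene had to be seen in at least 20 cells of the library where it was higher, with at most 25% of its UMIs in any of them, 525 lower and 14 higher genes were left, a condition that the smaller slie library meets less easily. A sum over a library cannot tell fewer cells of a type from less RNA per cell.

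**Figure D1:**
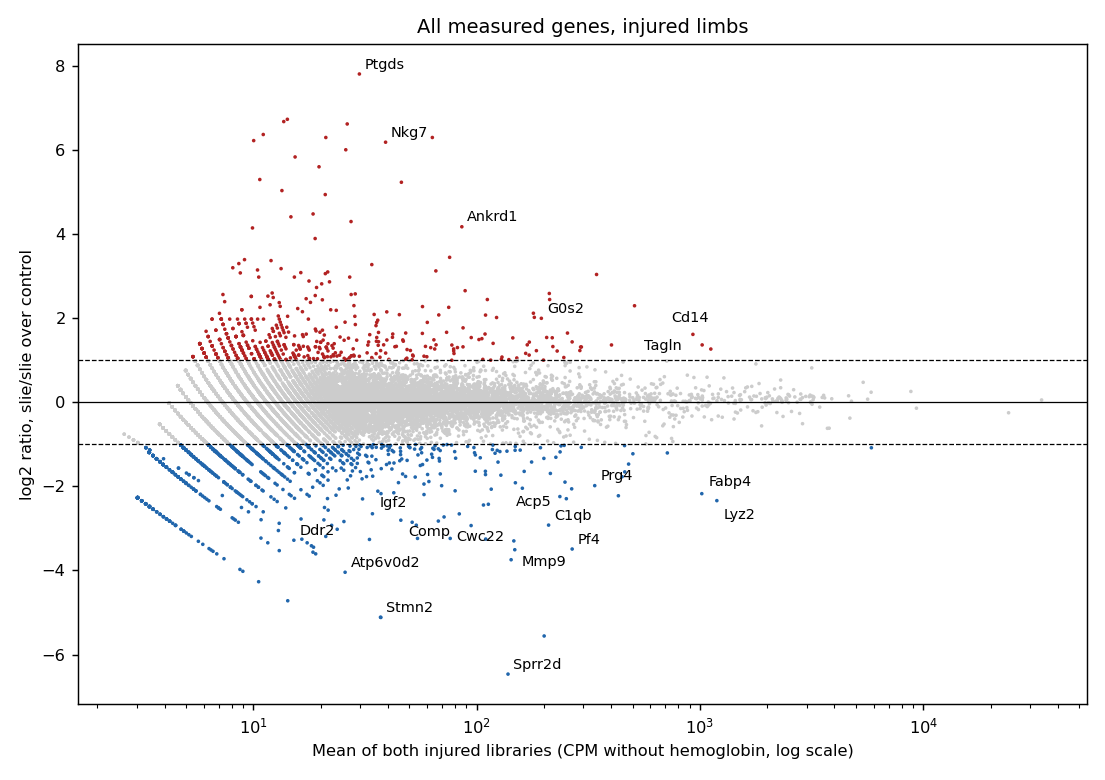
Each point is 1 of the 11309 measured genes, with its mean CPM over the slie and control injured libraries on the x axis (log scale) and its log2 ratio of slie over control on the y axis, and lines mark 2-fold. Genes past 2-fold are coloured (898 lower, 495 higher), and the labelled genes include Cwc22, Lyz2 and Cd14.

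Cells of both limbs and genotypes were clustered together into 17 clusters, which were named where at least 3 markers of a class were enriched and at least 1 of them was among the 10 leading genes, or at least 8 were enriched. Clusters 0, 2 and 6 (mesenchymal) and cluster 10 (neutrophil) were named by the latter, with 0 markers among their leading genes. Monocyte or macrophage-like cells were 7 of 246 slie cells (2.85%, interval 1.15 to 5.77) and 99 of 751 control cells (13.2%, interval 10.8 to 15.8), and they carried 3.42% and 19.9% of the UMIs. Keratinocyte-like cells, the epithelial cells of skin, were 8.94% of slie and 4.13% of control cells. Neutrophil-like cells made up 17.1% and 19.6%, dendritic-like cells 11.0% and 7.59%, and pericyte or smooth muscle-like cells 7.72% and 6.79%. Mesenchymal cells fell into several clusters: cluster 0 held 23.6% and 17.2% of the cells, cluster 2 held 19 slie and 97 control cells, and the cycling cluster 6 held 22 and 54. Endothelial-like cells were few in both (5 slie and 26 control) but deep, with 11.2% and 14.3% of the UMIs. The leading genes of several clusters also differed 2-fold between the libraries, among them 10 of 10 in the larger monocyte cluster, so these shares describe the clusters and are not a count of cell types set apart from the expression differences.

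**Figure D2:**
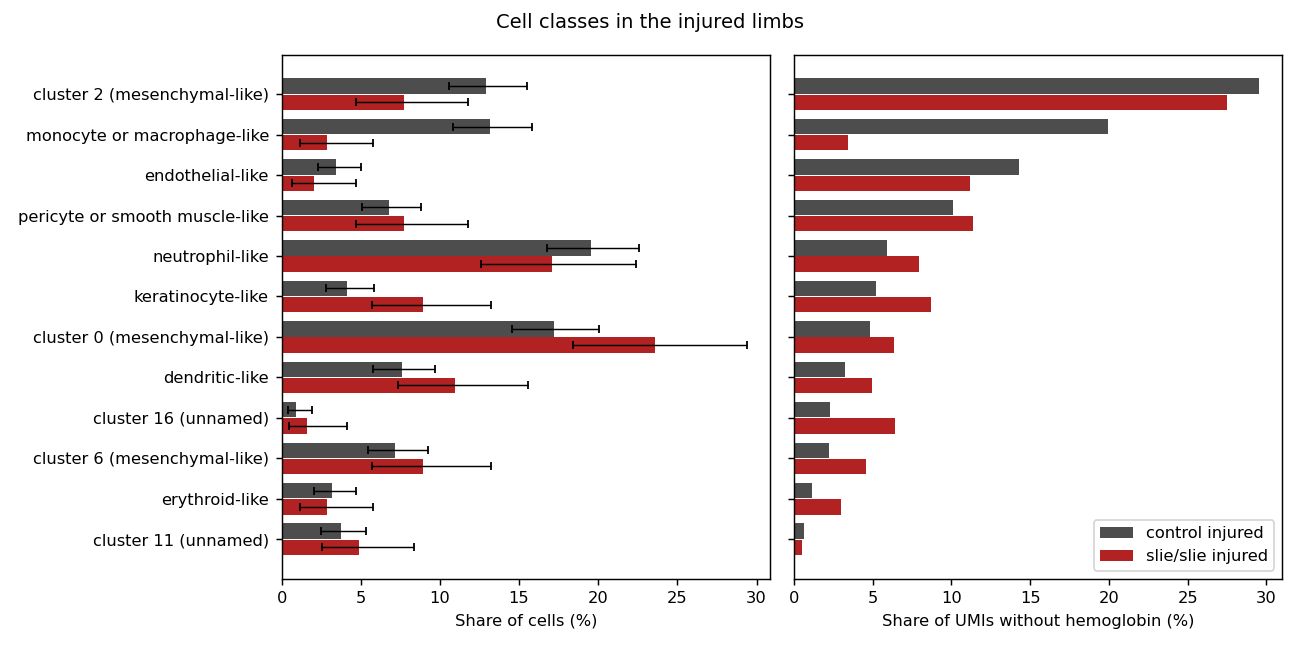
For each cell class with at least 10 cells over both injured libraries, bars give its percent of cells (left) and its percent of UMIs without hemoglobin (right) in the control and slie injured libraries, with exact 95% binomial intervals as lines on the left. Monocyte or macrophage-like cells stand at 2.85% of slie and 13.2% of control cells with intervals that do not overlap, and neutrophil-like cells at 17.1% and 19.6% with intervals that do.

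Sums over marker genes, which use no clusters, were lower in slie cells for macrophages, as the cluster shares were, while those of neutrophils and dendritic cells went the other way from the shares of cells. Shares of UMIs are the like measure for such sums. Neutrophil-like cells carried 7.97% of slie and 5.89% of control UMIs, the same direction as their marker sum. Dendritic-like cells carried 4.96% and 3.23%, still the other way from theirs. Markers of macrophages summed to 1965 CPM in slie and 4517 CPM in control cells, a ratio of 0.435 (0.415 to 0.456), with 11 of 13 markers lower. Osteoclast markers summed to 258 and 1252 CPM, a ratio of 0.206 (0.181 to 0.235), with 6 of 6 measured markers lower and Atp6v0d2 and Oscar at 0 in slie cells; Calcr, also listed, was at 0 in both libraries. Neutrophil markers had a ratio of 1.28 and dendritic markers of 0.924, while erythroid markers, with hemoglobin left out, had a ratio of 0.995. Markers of T and natural killer cells had a ratio of 3.15 (2.55 to 3.88), but 88.4% of the slie UMIs of its measured markers lay in 1 cell. All 6 B and plasma cell markers were at 0 in the slie library. They had 13 control UMIs in all, with 3 of them at 0 in control too and 0 measured, so this says little. Structural cells were mixed: the ratio was 0.837 for mesenchymal markers, 0.731 for endothelial, 1.77 for pericytes and smooth muscle, 1.31 for keratinocytes, 2.66 for tenocytes and 0.289 for synovial lining. Of the slie UMIs, 1 cell held 61.6% for tenocyte markers and 58.7% for those of pericytes and smooth muscle, and of the synovial UMIs 1 cell held 59.4% in slie and 59.5% in control.

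For genes lower in slie cells, most control UMIs lay more often in monocyte or macrophage-like and endothelial-like cells than for all measured genes. They lay less often in mesenchymal cluster 2. For 339 of the 898 (37.8%), the control cells with most of the UMIs were monocyte or macrophage-like, against 2271 of all 11309 measured genes (20.1%). Cluster 2 held most UMIs of 310 (34.5%), against 60.0% of all measured genes, and endothelial-like cells of 134 (14.9%), against 9.72%. To hold the mix of classes, each class's level was weighted by the mean of its UMI shares in both libraries. A UMI share combines the number of cells with the RNA per cell. The classes were formed from the same genes, so the weighting describes the data and is no test. With classes under 10 cells in either library joined, 864 genes (7.64%) were at least 2-fold lower and 585 (5.17%) higher, and 801 of the lower genes were also lower without this weighting. In that form the monocyte class is joined with other rare classes and its share is not held. With only classes under 5 cells joined, a form chosen after seeing the data, the monocyte class stands on its own with 7 slie cells, and 819 genes (7.24%) were lower and 425 (3.76%) higher. Of the 898 lower genes, 658 were lower in that form too, and 296 of the 495 higher genes were higher.

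Macrophage genes were the list with the lowest median. Of 14 measured genes, 12 were at least 2-fold lower in slie cells and 0 higher, with a median log2 ratio of −2.54 against −0.02 over all genes; with every cell thinned to 500 UMIs it was −0.81. The list holds the C1q genes, which the complement list shares. Lyz2, not in the list, the lysozyme of neutrophils and macrophages, had 377 slie and 7522 control UMIs, in 27 and 206 cells, and stood at 393 and 1986 CPM, 5.06-fold lower (4.56 to 5.62). Pf4, a platelet chemokine that tissue macrophages also make and likewise not in the list, had 42 and 1861 UMIs and was 11.2-fold lower (8.27 to 15.6). Ms4a6c, a monocyte membrane protein, had 20 and 752 UMIs and was 9.53-fold lower (6.12 to 15.7). The mannose receptor Mrc1 had 6 and 227 UMIs (9.59-fold lower, 4.34 to 26.4). Cd68, a lysosomal protein of macrophages, was 5.37-fold lower (3.80 to 7.81), and the growth factor receptor Csf1r 3.39-fold lower. Apoe, which keratinocytes and other cells express too, was 1.15-fold higher in slie cells.

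Holding the share of the monocyte class changed this list more than any other. With it held, 7 of 14 genes were at least 2-fold lower and the median log2 ratio was −0.76. The list's summed level differed by −993 CPM, slie minus control, made of −1137 CPM from the mix of classes and 145 CPM from levels within classes. Apoe alone gave 1292 of the 1633 slie CPM and 1123 of the 2626 control CPM, so this split weighs Apoe heavily. A single slie cell of cluster 16 held 36.9% of the list's slie UMIs. For Lyz2 the mix made up 95.9% of the difference, and within the monocyte class its level was 9355 CPM in slie and 9529 CPM in control cells. Csf1r (−0.04), Ms4a7 (0.06) and Trem2 (0.64) likewise had log2 ratios near or above 0 with the mix held. Pf4 (−1.61), Mrc1 (−1.12), Cd68 (−1.09) and Adgre1 (−1.01, on 1 slie and 44 control UMIs) remained at least 2-fold lower. So did C1qa, C1qb, C1qc and Arg1, given below. The 7 slie cells of that class set the precision of all these values. The class joins 2 clusters, and the one led by Pf4 and the C1q genes held 2 slie and 30 control cells.

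The 3 genes of complement C1q, which macrophages secrete and which tags debris and immune complexes, stayed lower with the class share held. C1qa had 21 slie and 632 control UMIs and was 7.63-fold lower (4.95 to 12.4). C1qb, with 47 and 1404 UMIs, was 7.57-fold lower (5.66 to 10.4), and C1qc, with 22 and 546, was 6.29-fold lower (4.11 to 10.1). Within the monocyte class C1qa had 0 slie and 607 control UMIs and C1qb 19 and 1360, while in dendritic-like cells C1qa had 21 and 23 UMIs. These are counts, not levels, since the monocyte class carried 3.42% of 959659 slie UMIs and 19.9% of 3787256 control UMIs. Of the cells in the cluster that these genes lead, 2 were slie and 30 control. Each of the 3 genes had 2 classes with at least 10 UMIs, and was lower in 1 and at least 2-fold higher in the other. With the mix held their log2 ratios were −2.50, −1.30 and −1.70. Arg1, the arginase of wound macrophages, followed them with 16 and 447 UMIs, 7.08-fold lower (4.31 to 12.5), and −2.92 with the mix held.

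Over the whole complement list, 6 of 13 measured genes were lower and 0 higher, with a median log2 ratio of −0.99, of −1.06 with the mix held and of −0.09 with thinned cells. C3, the central component, was 4.44-fold lower (2.64 to 8.05), and its receptor gene C3ar1 had 3 slie and 120 control UMIs. Antigen presentation genes of MHC class II and its loading, Ctss included, were closer to background: 2 of 8 were lower, with a median of −0.56. Their levels within classes went both ways. Cd74, the chaperone of class II, was 4.3-fold higher in slie cells of the monocyte class (18710 against 4380 CPM) and lower in dendritic-like cells (19596 against 32008 CPM). H2-Aa in the monocyte class was 6.0-fold higher (7740 against 1286 CPM). Of the slie UMIs of this list, 1 monocyte or macrophage-like cell held 33.8%, in a class of 7 slie cells. How far the levels within that class rest on this cell was not tested. For the whole list the mix contributed −2899 CPM and the levels within classes 2076 CPM.

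Interferon-induced genes, which cells switch on in response to viral RNA or type I interferon, were lower in slie cells for 6 of 12, and 0 were higher, with a median log2 ratio of −0.98 and of −0.86 with the mix held. Of these 6, only 4 had an interval that left out a ratio of 1. Rsad2 had 15 slie and 154 control UMIs and was 2.60-fold lower (1.53 to 4.76), Oasl2 was 2.75-fold and Oas1a 4.18-fold lower. Ifi27l2a had 75 and 599 UMIs and was 2.02-fold lower (1.59 to 2.61), but its log2 ratio with the mix held was 0.46. Ifitm3, the most abundant of them, stood at 1342 and 1599 CPM, 1.19-fold lower.

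CC chemokines, which recruit monocytes and T cells, split: 4 of 10 were lower, 2 higher, and the median was −0.95. Ccl6 had 99 slie and 1626 control UMIs and was 4.16-fold lower, Ccl8 had 12 and 359 and was 7.58-fold lower, and Ccl12 was 5.32-fold lower. The monocyte attractants Ccl2 and Ccl7 were 1.90-fold and 1.97-fold lower, short of 2-fold, and with thinned cells Ccl7 had a log2 ratio of 0.32. Ccl5, a T cell chemokine, was 4.25-fold higher (2.99 to 6.05), with 67.1% of its slie UMIs in 1 cell. Ccl3 was 2.01-fold higher. Of 9 CXC chemokines and their receptors (Cxcr2 and Cxcr4) 2 were lower, Cxcl3 and Cxcl12, with a median of −0.12.

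Genes of osteoclast-type cells, the multinucleated cells that dissolve bone and cartilage matrix, were lower in slie cells for 8 of 8, with a median log2 ratio of −2.26 that was −0.15 with cells thinned to 500 UMIs. Mmp9, a gelatinase, had 23 slie and 1031 control UMIs and was 11.4-fold lower (7.53 to 18.0). Acp5, the acid phosphatase TRAP, stood at 85.4 and 419 CPM and was 4.90-fold lower (3.92 to 6.19). Ctsk, the collagen-degrading cathepsin K, stood at 152 and 710 CPM, 4.67-fold lower (3.95 to 5.55), although with thinned cells its log2 ratio was 0.19. Atp6v0d2, a proton pump subunit, had 0 and 195 UMIs and was at least 16.5-fold lower. The fusion genes Dcstamp and Ocstamp had 2 and 3 slie UMIs against 46 and 51 in control cells.

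These control UMIs came from few cells. Over the list, the control library held 5822 UMIs, of which 1 monocyte or macrophage-like cell with 60150 UMIs in all gave 43.2% and the top 5 cells 80.6%, and the slie library held 276. That cell was the top cell of 6 of the 8 genes, and Atp6v0d2 was seen in 9 control cells. With each gene's top cell left out of both libraries, the log2 ratio was −2.00 for Acp5, −1.82 for Ctsk, −2.70 for Mmp9 and −3.09 for Atp6v0d2. In the monocyte class Ctsk had 0 slie and 1879 control UMIs, and in mesenchymal cluster 2, where fibroblasts express it too, 102 and 549. These are counts, not levels. Cluster 2 carried 27.5% of 959659 slie UMIs and 29.5% of 3787256 control UMIs, and the monocyte class 3.42% and 19.9%. With the class share held, 6 of 8 genes were still lower, with a median of −1.80. Of the difference of −1250 CPM in the summed level, −431 CPM lay in the mix and −819 CPM within classes.

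**Figure D3:**
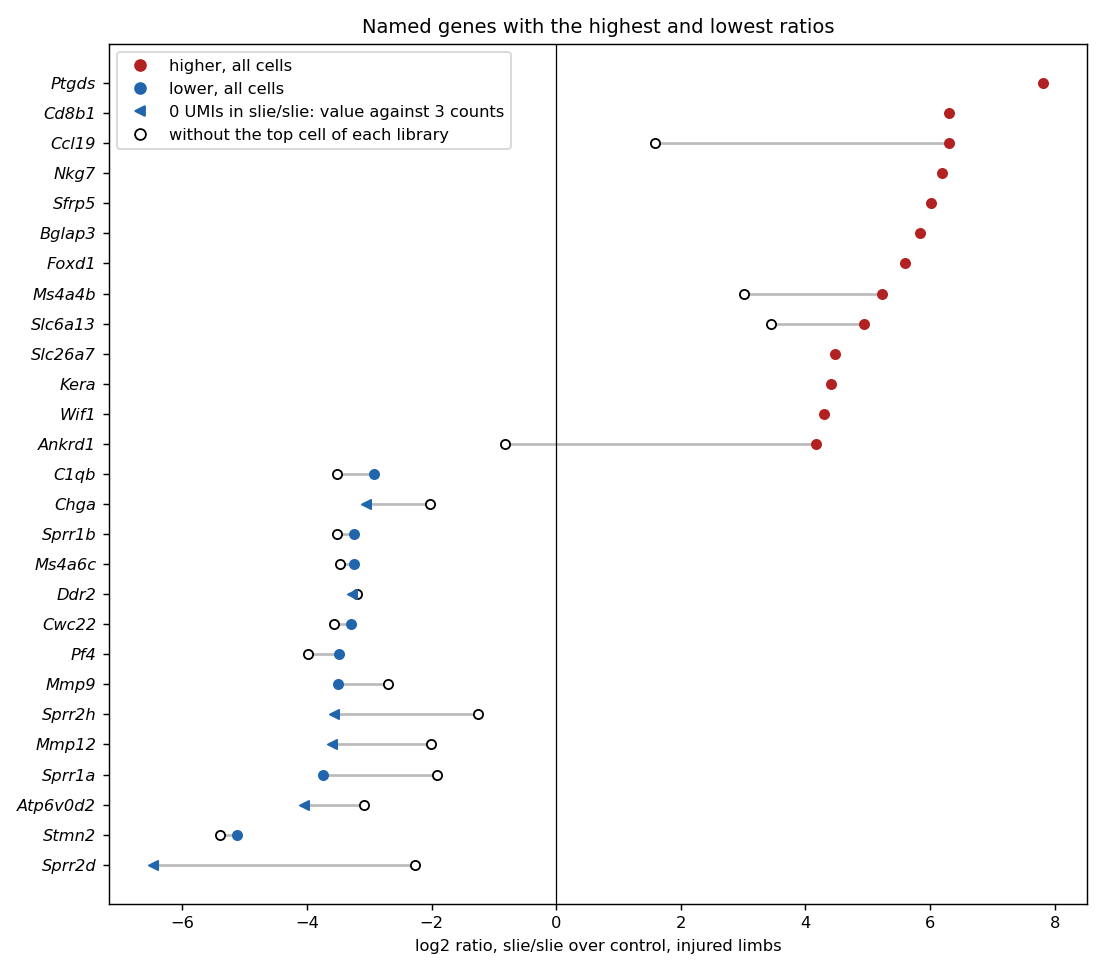
The x axis is the log2 ratio of slie over control injured cells for the named genes with the highest and lowest ratios, 1 per row. Filled points use all cells, triangles mark genes with 0 slie UMIs set against 3 counts, and open points leave out the cell with the most UMIs of the gene in each library, drawn where UMIs remain to compare. Ankrd1 moves from 4.18 to −0.82 and Mmp9 from −3.51 to −2.70.

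**Figure D4:**
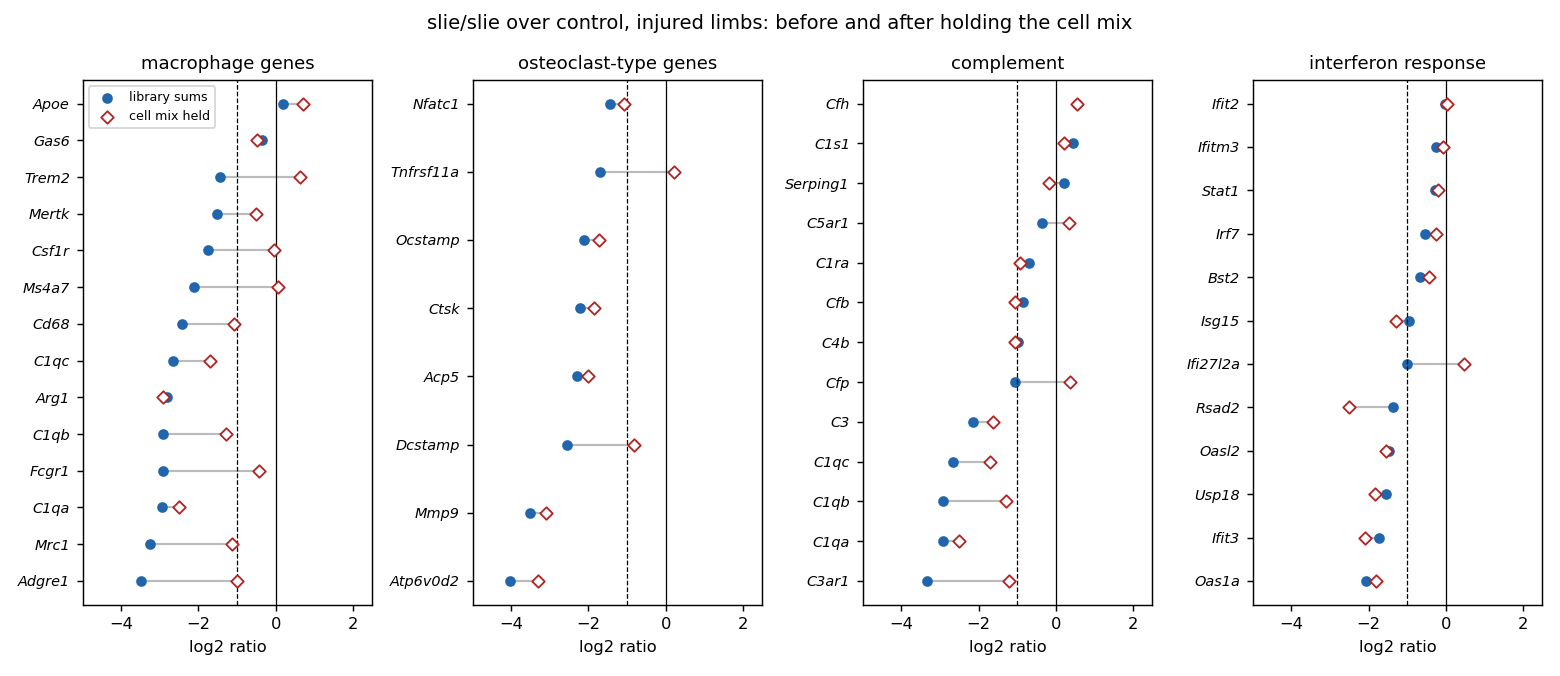
Each panel is a gene list and each row 1 gene, with its log2 ratio of slie over control injured cells from library sums (filled) and with the mix of classes held (open diamonds), dashed lines marking 2-fold lower. Csf1r and Ms4a7 move to −0.04 and 0.06, while C1qb moves from −2.92 to −1.30 and Mmp9 from −3.51 to −3.11.

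Some neutrophil genes were higher in slie cells, also within neutrophil-like cells, which numbered 42 in slie and 147 in control. That class joins cluster 1, with 26 slie and 109 control cells, and cluster 10, led by Ccl4, with 16 and 38. Levels within the class can therefore still carry a shift between these clusters. Cd14, the co-receptor for bacterial lipopolysaccharide, had 1345 slie and 1729 control UMIs, in 55 and 158 cells, and stood at 1402 and 457 CPM, 3.07-fold higher in slie (2.86 to 3.30). Within neutrophil-like cells it was at 16127 and 4410 CPM, 3.7-fold higher (3.4 to 4.0). G0s2, an inhibitor of fat breakdown, stood at 312 and 77.9 CPM, 4.0-fold higher (3.39 to 4.71), and in neutrophil-like cells at 3872 and 1211 CPM. Cyp4f18, which inactivates leukotriene B4, was 2.57-fold higher (2.00 to 3.30). The granule proteins S100a9 (6258 and 4496 CPM) and S100a8 (3785 and 3369 CPM) were 1.39-fold and 1.12-fold higher. Over the neutrophil list 1 of 11 genes was 2-fold higher (G0s2) and 1 lower (Mmp9, also in the osteoclast-type list), with a median of 0.48 that became −0.75 without cells under 0.5% mitochondrial UMIs. Those cells include 38 of the 42 slie and 125 of the 147 control neutrophil-like cells.

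Genes of the IL-1 and early inflammatory response were 2-fold higher for 2 of 13 and lower for 1, with a median of 0.45. It became −0.83 without cells under 0.5% mitochondrial UMIs, a setting that leaves out most neutrophil-like cells. Il1rn, the receptor antagonist that blocks IL-1, stood at 332 and 159 CPM, 2.09-fold higher (1.82 to 2.40), but at that setting its log2 ratio was −0.052. Il1a was 2.58-fold higher and the neutrophil attractant Cxcl2 1.77-fold (log2 ratio −1.56 at that setting). Tnf fell just short of 2-fold higher, and Il1b was 1.01-fold lower. Csf3, the growth factor of neutrophils, had 4 slie and 75 control UMIs and was 4.75-fold lower.

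**Figure D5:**
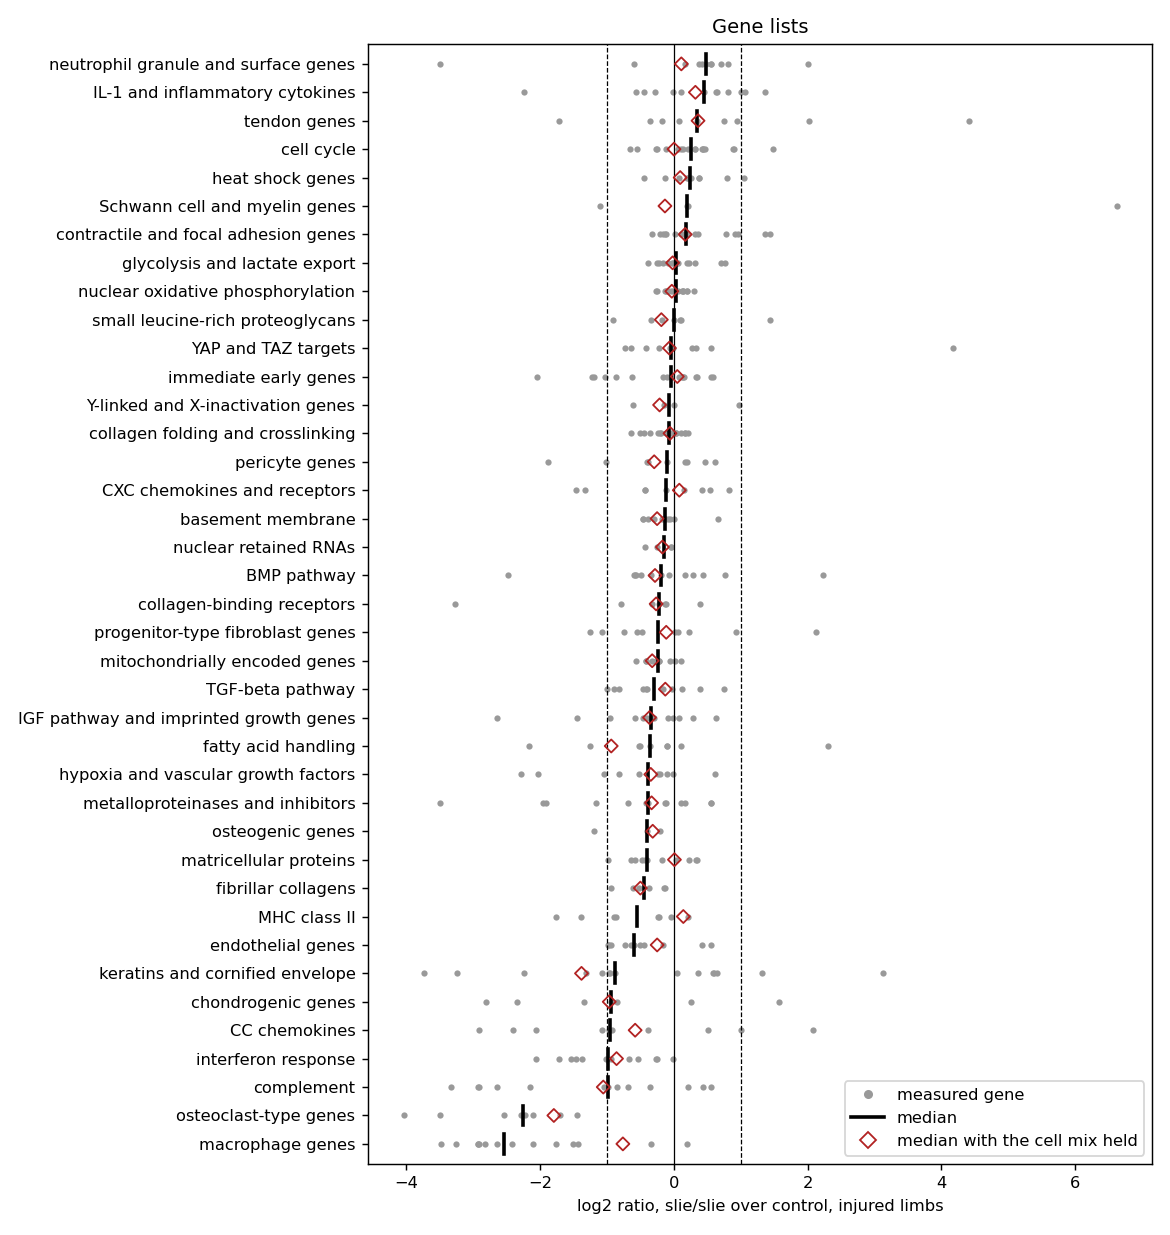
Each row is a gene list, each point 1 measured gene at its log2 ratio of slie over control injured cells, with a bar at the list's median, an open diamond at the median with the mix of classes held, and lines at 2-fold. The macrophage and osteoclast-type lists lie furthest to the left, at medians of −2.54 and −2.26, and the glycolysis and oxidative phosphorylation lists at 0.03 and 0.02.

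Fibrillar collagens, the ligands of Ddr2, were lower in slie cells by less than 2-fold, 6 of 6, with a median log2 ratio of −0.45 against −0.02 over all genes. The list's median was −0.50 with the mix held and −0.11 with thinned cells, where Col1a1 had 0.003. In the uninjured limbs it was 0.63. Of the slie UMIs of this list, 1 cell held 21.7% and the top 5 cells 48.0%. Col11a1, a minor fibril collagen, was lowest, at 1.93-fold lower (1.65 to 2.27). Col1a1 stood at 8866 CPM in slie and 9759 CPM in control cells, 1.10-fold lower, Col1a2 was 1.30-fold lower, and Col3a1 stood at 2993 and 4582 CPM, 1.53-fold lower. Among 7 collagen-binding receptors only Ddr2 was past 2-fold, and the median was −0.23. No gene passed 2-fold among 16 genes of collagen folding and cross-linking (median −0.08), 11 of the basement membrane (−0.14) and 11 matricellular genes (−0.40). Of 7 small leucine-rich proteoglycans, which coat collagen fibrils, 1 was higher (Prelp), with a median of 0.01. Matrix metalloproteinases, related proteases and their inhibitors were lower for 4 of 13, with a median of −0.39. The 4 (Mmp9, Mmp13, Mmp3 and Adamts1) are proteases, and the inhibitor genes Timp1, Timp2 and Timp3 had log2 ratios of 0.17, −0.13 and 0.55.

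Some cartilage and joint lining genes were lower. Of 7 measured chondrogenic genes 3 were lower (Comp, Acan and Matn3) and 1 higher (Cilp, 2.96-fold), with a median of −0.95, and the summed level differed by −271 CPM, −267 CPM of it within classes. Comp, which binds collagen in the matrix of cartilage and tendon, had 11 slie and 303 control UMIs and was 6.98-fold lower (3.85 to 14.1). Acan, the aggregating proteoglycan of cartilage, had 25 and 251 UMIs and was 2.54-fold lower. Matn3 rested on 1 and 20 UMIs, with an interval that includes a ratio of 1. Sox9, the transcription factor of cartilage fate, was 1.19-fold higher. Prg4, the lubricin of joint and tendon surfaces, had 131 and 2041 UMIs and was 3.95-fold lower (3.31 to 4.75), and Mmp3, the stromelysin of synovial fibroblasts, had 60 and 892 and was 3.77-fold lower (2.90 to 4.98). Within cluster 2 Prg4 was 3.7-fold lower. Of 3 measured osteogenic genes 1 was lower (Dmp1), with a median of −0.40. Dmp1 rested on 2 slie and 18 control UMIs, and its interval also includes a ratio of 1.

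Tendon genes differed in both directions. Of 9 tendon genes 2 were higher (Kera and Thbs4) and 1 lower (Col14a1), with a median of 0.35 that was −0.05 with thinned cells. Kera, a corneal and tendon proteoglycan, had its 27 slie UMIs in 1 cell. The tendon factor Scx was 1.69-fold and Tnmd 1.92-fold higher. Thbs4, a matrix glycoprotein of tendon, had 279 slie and 271 control UMIs and was 4.06-fold higher, with a log2 ratio of 0.56 without its top cell and of −0.20 with each cell weighted equally. Col14a1 had 49 and 636 UMIs and was 3.29-fold lower (2.46 to 4.49). Of 12 genes of the IGF pathway and imprinted growth genes (H19, Mest, Peg3 and Dlk1 among them) 2 were lower, Igfbp2 and Igf2, with a median of −0.35, and Igf2 had 9 and 223 UMIs, 6.28-fold lower (3.25 to 13.9). The interval of Igfbp2 included a ratio of 1. Igfbp6, a binding protein with preference for Igf2, had 280 and 254 UMIs and was 4.35-fold higher. It belongs to the fibroblast progenitor list, of which 1 of 10 was higher and 2 lower (Clec3b and Ly6a), with a median of −0.24.

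Bone morphogenetic and transforming growth factor genes were near background. Of 13 BMP genes Bmp4 was higher and Smad6 lower, with a median of −0.19, and Bmp4 rested on 25 slie and 21 control UMIs (4.70-fold higher). Smad6 rested on 1 and 22 UMIs, with an interval that includes a ratio of 1. Of 12 TGF-beta genes 1 was lower (Tgfbr1), with a median of −0.29. Of 10 targets and components of the mechanosensitive YAP and TAZ pathway (Yap1, Wwtr1, Tead1 and Lats2 among them), Ankrd1 was higher and the median was −0.04, and Ankrd1 had 98.7% of its slie UMIs in 1 cell, without which its log2 ratio was −0.82.

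Vessel cells differed in single genes more than in their lists. Of 11 endothelial genes 0 passed 2-fold, with a median of −0.59, and Pecam1, the junction protein of endothelium, was 1.95-fold lower. Fabp4, a fatty acid carrier of capillary endothelium and fat, had 355 slie and 6312 control UMIs and stood at 370 and 1667 CPM, 4.51-fold lower (4.05 to 5.03). Within endothelial-like cells it was 6.5-fold lower (5.5 to 7.9), at 1174 and 7666 CPM, and it was at least 2-fold lower in 7 of 9 classes with enough UMIs. The mix accounted for 5.95% of its difference. Cxcl12, which retains progenitor cells near vessels, stood at 254 and 703 CPM, 2.77-fold lower (2.43 to 3.17). Its classes went opposite ways: endothelial-like cells had 6 slie and 1338 control UMIs (44.2-fold lower, 20.2 to 121), while pericyte-like cells had a 3.65-fold higher level in slie. Klf2, a flow-induced transcription factor, had 60 and 976 UMIs and was 4.12-fold lower (3.17 to 5.44). Stmn2 and Chga, known from neurons and neuroendocrine cells, had 2 and 0 slie UMIs against 274 and 98 in control, and the Stmn2 UMIs of control all lay in 10 endothelial-like cells. With 5 slie endothelial-like cells, how far these values hold beyond those cells was not tested.

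Contractile genes of smooth muscle and myofibroblasts, listed together with focal adhesion genes, were higher for 2 of 16 (Cnn1 and Tagln) and lower for 0, with a median of 0.18. Among the adhesion genes Tln1 had a log2 ratio of −0.33 and Vcl −0.12, and among the contractile ones Myl9 had 0.96 and Tpm2 0.77. Tagln had 1414 slie and 2164 control UMIs and stood at 1473 and 571 CPM, 2.58-fold higher (2.41 to 2.76), with 63.5% of the slie UMIs in 1 cell and a log2 ratio of 0.41 without the top cells. Acta2, smooth muscle actin, stood at 2325 and 1233 CPM, 1.89-fold higher, and its log2 ratio without the top cells was −0.35. That slie pericyte-like cell, with 42971 UMIs, held 47.2% of the UMIs of this list in its library. Of 9 pericyte genes 2 were lower (Kcnj8 and Higd1b), with a median of −0.11, and Ednrb, an endothelin receptor, had 23 and 349 UMIs and was 3.84-fold lower.

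Of 15 keratins and related genes 5 were lower and 2 higher, with a median of −0.88 that was −1.38 with the mix held but 1.09 with cells thinned to 500 UMIs. The basal keratins Krt5 (400 slie and 633 control UMIs, 2.49-fold) and Krt15 (113 and 51 UMIs, 8.74-fold, 6.23 to 12.4) were higher in slie cells. Krt14, also basal, was 1.51-fold higher but had a log2 ratio of −0.25 with the mix held. Of the upper-layer pair, Krt10 was 2.49-fold lower and Krt1 1.03-fold higher. Krt16, a keratin of wounded skin, had 79 and 1474 UMIs and was 4.73-fold lower (3.77 to 6.01), but its log2 ratio was 1.91 with thinned cells and 1.22 with each cell weighted equally. Small proline-rich proteins, which build the outer cell envelope, were lower as well: Sprr1a had 19 and 1005 UMIs (13.4-fold) and Sprr1b 14 and 521 (9.43-fold). Sprr2d had 0 and 1046 UMIs, 94.6% of them in 1 cell, and is nearly identical to other Sprr2 genes, so its count is uncertain. A single control keratinocyte-like cell held 87.1% of the 2712 small proline-rich UMIs of that library.

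Some genes differed in nearly every class of cells. Cwc22, a splicing factor, had 26 slie and 1008 control UMIs, in 16 and 261 cells, and stood at 27.1 and 266 CPM, 9.82-fold lower (6.66 to 15.1). It was lower in 10 of 10 classes with at least 10 UMIs, by 2-fold or more in 8, and its log2 ratio with the mix held was −3.32. Mice carry near-identical copies of Cwc22 on chromosome 2, so reads of different copies may not be told apart. Nme2, a nucleoside kinase, was 2.86-fold higher, in 8 of 8 classes. Nme2 also has near-copies in the genome, so its count is uncertain. Bloc1s1, a subunit of a lysosome-positioning complex, was 2.11-fold higher, in 9 of 9 classes, and Polr2l, a subunit shared by the RNA polymerases, 2.03-fold higher, in 6 of 7. Outside these, the histone gene Hist1h2al had 0 slie UMIs and 82 in 44 control cells, at least 6.93-fold lower, with 10 UMIs in 3 classes only, and its sequence is shared with other histone genes. Fth1, the ferritin heavy chain that stores iron, stood at 3758 and 7945 CPM, 2.11-fold lower (2.04 to 2.19), and was lower in 9 of 11 classes.

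The genes with the highest ratios came from 1 or a few cells each. Nkg7 (74 slie and 4 control UMIs), Ms4a4b (86 and 9) and Cd8b1 (40 and 2), genes of cytotoxic and other T cells, lay in a class led by red cell genes, at least 83.7% of each in a single cell. Ccl19, a chemokine of lymphoid stroma, had 120 and 6 UMIs, 97.5% of the slie UMIs in 1 pericyte-like cell. Scd1, a fatty acid desaturase, was 4.92-fold higher, but 95.3% of its slie UMIs lay in 1 cell, without which its log2 ratio was −0.76. Fatty acid genes as a list were higher for 1 of 9 (Scd1) and lower for 2 (Fabp4 and Cd36), with a median of −0.36. All slie UMIs of Sfrp5 and Foxd1, and 79.5% of those of Slc6a13, lay in the 1 slie cell of cluster 8. Ptgds, a prostaglandin synthase, had its 57 slie UMIs in 1 monocyte or macrophage-like cell. Over all 495 higher genes, the class with most of the slie UMIs was cluster 2 for 147 (29.7%) and cluster 16, of 4 slie cells, for 116 (23.4%). Shares over all measured genes were taken in the control library only, where cluster 2 had 60.0% and cluster 16 had 1.24%. Whether the higher genes differ from all genes in this was therefore not tested.

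Growth and energy genes showed little difference between the libraries. Of 18 cell cycle genes 1 was higher (Rrm2), with a median of 0.26, and 0 were lower. Of 15 glycolysis and 16 oxidative phosphorylation genes 0 passed 2-fold, with medians of 0.03 and 0.02, and 13 mitochondrially encoded genes had a median of −0.24. Hypoxia genes were lower for 3 of 10, with a median of −0.39: the vasodilator peptide gene Adm had 5 slie and 96 control UMIs (4.87-fold), the oxygen sensor Egln3 was 4.10-fold and Vegfa 2.06-fold lower. Immediate early genes, which respond to growth signals and to tissue dissociation, were lower for 4 of 17 (Klf4, Klf2, Fos and Nr4a1), with a median of −0.04, and Fos, at 150 and 1214 UMIs, was 2.05-fold lower, and lower in 7 of 8 classes. Of 10 heat shock genes 1 was higher (Hspa1a, 12 and 23 UMIs, with an interval that includes a ratio of 1). Their median was 0.24, and 4 nuclear RNAs had a median of −0.15. In the myofibre list 0 genes reached 20 UMIs.

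Genes next to Ddr2 were looked at because a mutant line keeps the DNA that flanks its mutation. Of 127 measured genes within 10 Mb on either side, 16 (12.6%) were at least 2-fold lower and 5 (3.94%) higher, against 7.94% and 4.38% of all measured genes, with a median log2 ratio of −0.09. The lower ones included Fcgr2b, Cd48, Cd84, Mnda and Ifi204, genes of blood-derived cells, and Sele, an adhesion gene of inflamed endothelium.

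The uninjured limbs of the same mice gave 184 slie and 60 control cells. Of 7486 genes measured there, 894 (11.9%) were at least 2-fold higher in slie cells and 719 (9.6%) lower. The macrophage list, with 10 measured genes, had a median log2 ratio of 1.37, complement with 11 genes 2.20, and MHC class II with 7 genes 2.36. Clusters 7 and 12, the monocyte or macrophage-like ones, held 1 and 4 of the uninjured slie cells and 0 of the control cells. Endothelial genes had a median of −0.81 over 11 genes and contractile genes −0.89 over 16. Cwc22, lower in nearly all injured classes, was lower there too, at 52.6 CPM in slie and 522 CPM in control cells. Fabp4, lower in injured slie cells, stood at 9388 and 5109 CPM.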

How the data were processed

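Per the labels, the submitters aligned the reads to mm10. Per the file headers they used Cell Ranger 5.0.1, and the deposited values are UMI counts, not normalized, for each gene in each barcode, with 375 barcodes for the slie and 842 for the control injured library. From these counts, cells were filtered, hemoglobin genes were removed from totals, and UMIs were summed per library and divided by the total. The 95% intervals are conditional binomial for a ratio of counts and Clopper-Pearson for a share of cells, both exact. A gene was measured at 20 UMIs over both libraries, and counted as lower or higher past 2-fold; against 0 UMIs the floor of 3 UMIs per library gave a bound. All 4 libraries were clustered in scanpy 1.11.5 with leidenalg 0.10.2 (2000 variable genes, 30 components, 15 neighbours, resolution 1). No doublets were removed; Scrublet marked 1 slie and 0 control cells, which for so few cells says little. Scripts ran in Python 3.11.15 with numpy 2.4.6 and scipy 1.17.1, and edgeR 4.0.16 in R 4.3.3 gave TMM factors only. The ratio and interval code was tested on simulated data.

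The members and lists were chosen with earlier results of these data known, and the thresholds for naming clusters were set after seeing the data. The named genes were Ddr2; the 14 highest and 14 lowest genes by the interval bound nearest to 1 among those with at least 30 UMIs; the 4 members of each list with most UMIs; C1qa, C1qb, C1qc, S100a8 and S100a9; and up to 3 genes per class that differed 2-fold with the mix held. After seeing the data, 10 genes in each direction that were spread over at least 20 cells were added. Other genes named in the text are list members chosen after their values were seen. Of the alternatives, 20 were planned and 3 were added after seeing the data. Some results that these rules select are not reported here.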

Additional observations from a re-analysis of the deposited data

Results flagged for a closer look

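For 16 named genes the ratio of slie over control in the uninjured right limbs went opposite to that in the injured limbs, each by at least 2-fold. The difference between the limbs was not tested, since each limb and genotype is 1 library, and the control uninjured library held 60 cells. The uninjured cell mix differed as well. Clusters 7 and 12, the monocyte or macrophage-like ones, held 1 and 4 uninjured slie cells and 0 control cells. Mesenchymal cluster 8 held 67 uninjured slie and 2 control cells. How far this mix drives the uninjured ratios was not tested. Macrophage genes lower in injured slie cells were higher in uninjured ones. Their uninjured log2 ratios were 3.15 for Lyz2 (440 slie and 10 control UMIs), 2.89 for Pf4 (257 and 7), 2.63 for C1qb (215 and 7), 2.20 for C1qc (114 and 5), 1.46 for C1qa (123 and 9), 2.16 for the cathepsin gene Ctss (133 and 6) and 2.60 for Ccl6 (30 and 1). Clec10a, a lectin of dendritic cells and macrophages, had 3.36 (51 and 1), and Ms4a6c, with 37 and 0 UMIs, 1.31 as the value against the floor of 3 UMIs. The interferon-induced Ifi27l2a had 1.83 (265 and 15). Matrix genes went the same way, with 3.73 for Prg4 (132 and 2), 1.95 for Comp (153 and 8), 1.81 for Ctsk (227 and 13) and 1.13 for Col14a1 (87 and 8). The muscle genes Tagln (−1.89, 2008 and 1502 UMIs) and Mustn1 (−1.64, 513 and 322 UMIs) were lower in uninjured slie cells and higher in injured ones.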

How the results depend on the processing

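The counts of 495 higher and 898 lower genes became 163 and 449 with each cell thinned to 500 UMIs, 1056 and 2182 with each cell weighted equally, 217 and 503 at a minimum of 50 UMIs, and 1345 and 1912 at 1.5-fold. At a minimum of 1 UMI 950 genes were higher. Ddr2 had a log2 ratio of −0.092 in thinned cells, as a value against the floor. With thinned cells the log2 ratio turned to 0.19 for Ctsk, 0.53 for Clec10a, 1.91 for Krt16, 0.32 for Ednrb, −0.51 for Strbp and −0.039 for Scd1. With each cell weighted equally it turned to −0.20 for Thbs4, 1.22 for Krt16 and −0.24 for Phgdh. Without the 3 deepest cells of each library it was −1.84 for Ankrd1 and −1.96 for Scd1, and without the cell with the most UMIs of the gene −0.82 and −0.76. Il1rn had −0.052 without cells under 0.5% mitochondrial UMIs, a setting that leaves out most neutrophil-like cells. The causes were not tested, beyond the fewer cells or UMIs that these settings leave. Over 12 settings the median stayed below 0 for the macrophage list (−2.85 to −0.81), the osteoclast-type list (−2.51 to −0.15), complement (−1.27 to −0.09), interferon response (−1.63 to −0.58) and chondrogenic genes (−1.0 to −0.57). Lists with medians near 0 changed sign in some settings, as the basement membrane (−0.21 to 0.25) and immediate early genes (−0.56 to 0.23) did. The slie library, with 246 cells and 21.5% of its UMIs in 3 of them, limits every value, and several classes rest on 1 to 7 slie cells. No paired analysis was possible because each genotype and limb is 1 library.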
